A study of Mus musculus with 6 samples.

Results

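Liver glucose output depends on a small set of enzymes and on the hormone signals that switch their genes on and off, and 9 such genes were followed here in mouse livers in which breakdown of lipid droplets by autophagy (lipophagy) had been induced. Members were chosen by gene symbol. They were Pck1, G6pc, Fbp1, Pcx and Tat, which encode enzymes, Ppargc1a and Foxo1, which encode transcriptional regulators, and Irs2 and Igfbp1, which encode an insulin signaling adapter and a secreted binding protein. All 9 were among the 24346 gene symbols of the table, and all 9 were among the 11493 genes that passed a filter on low values, which asked for 0.5 FPKM or more on average over the 6 livers. FPKM are fragment numbers divided by transcript length and library size, so levels of different genes are set side by side per length.

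The livers came from C57BL/6 mice (C57BL/6J per the study's methods) with nonalcoholic steatohepatitis. Per the study's text and methods, male mice aged 8 weeks were fed CDAHFD, a high-fat diet that lacks choline and holds amino acids in place of protein, for 6 weeks, received a single intravenous dose of an adeno-associated virus of serotype 8, returned to normal chow and were analyzed 2 weeks later. In both groups the vector carried the lipid droplet-targeting sequence (LDTS) of perilipin 1 under the thyroxine-binding globulin promoter, which is active in hepatocytes. In the 3 control livers LDTS was fused with a mutant LC3-interacting region that does not recruit autophagosomes (LDTS-LIR mut), and in the 3 lipophagy livers with an engineered region derived from optineurin that does (LDTS-eLIR). The controls therefore shared the diet, the vector and LDTS, which by itself can add fat to liver cells per the study's text, and no liver without vector or on chow throughout was analyzed here. The methods say that the mice had food freely available and name fasting for glucose and insulin tolerance tests, and they do not state the feeding state or the hour at which these livers were taken. The samples are numbered livers, and p-values measure the spread between these samples.

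Gluconeogenesis builds glucose from lactate, glycerol and amino acids, mainly in periportal hepatocytes. Glucagon, acting through cAMP and the factor CREB, and glucocorticoids, acting through the glucocorticoid receptor, turn on the genes of its key enzymes during fasting. Insulin turns them off, in part because AKT phosphorylates FOXO1 and sends it out of the nucleus. Several of the 9 genes are textbook targets of these signals in liver, and Igfbp1, G6pc, Pck1 and Irs2 are all known to be repressed by insulin.

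Some of the elements that read these signals lie in the proximal promoters, while others, such as the glucocorticoid elements of Tat, lie farther away. The promoters of 4 genes that hold the searched letters are shown to let a reader see them. Each is the 250 bases before the RefSeq start on GRCm38.p6, the patch release of the mm10 build of the data, written 5′ to 3′ on the gene's strand. Capitals mark matches on either strand to TTACGTNA (a cAMP response element variant), TGACG (a shorter cAMP response element core, which overlaps the first motif in Pck1) and TGTTTTG (the core of an insulin response element). The regions are chr2:173152823-173153072 on the plus strand for Pck1, chr11:101367466-101367715 on the plus strand for G6pc, chr11:7197537-7197786 on the plus strand for Igfbp1 and chr8:11008930-11009179 on the minus strand for Irs2.
Pck1: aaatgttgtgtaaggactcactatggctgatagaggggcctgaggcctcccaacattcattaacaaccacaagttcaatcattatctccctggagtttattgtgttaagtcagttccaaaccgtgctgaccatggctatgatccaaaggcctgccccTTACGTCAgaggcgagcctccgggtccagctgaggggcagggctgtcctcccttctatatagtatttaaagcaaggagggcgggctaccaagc
G6pc: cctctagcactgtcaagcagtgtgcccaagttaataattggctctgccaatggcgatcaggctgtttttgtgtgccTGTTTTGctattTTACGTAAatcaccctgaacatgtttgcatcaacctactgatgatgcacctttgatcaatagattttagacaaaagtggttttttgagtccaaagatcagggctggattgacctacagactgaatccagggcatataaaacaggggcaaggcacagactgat
Igfbp1: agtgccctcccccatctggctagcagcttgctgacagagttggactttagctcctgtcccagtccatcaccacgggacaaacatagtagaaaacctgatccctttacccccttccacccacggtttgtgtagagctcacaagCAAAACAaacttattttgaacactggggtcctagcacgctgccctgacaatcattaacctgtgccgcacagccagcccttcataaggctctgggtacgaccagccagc
Irs2: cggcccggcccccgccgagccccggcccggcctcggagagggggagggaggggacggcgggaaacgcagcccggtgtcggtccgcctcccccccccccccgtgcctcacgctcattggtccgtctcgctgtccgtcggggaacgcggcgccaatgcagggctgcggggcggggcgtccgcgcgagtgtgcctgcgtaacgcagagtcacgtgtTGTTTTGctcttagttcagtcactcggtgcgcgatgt

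In Pck1 the match to TTACGTNA lay 93 to 86 bases before the start. In G6pc a TGTTTTG match at 174 to 168 bases before the start was followed by a TTACGTNA match at 162 to 155 bases. The Igfbp1 match to TGTTTTG was on the opposite strand, 108 to 102 bases before the start, and the Irs2 match was 37 to 31 bases before it. Ppargc1a, on the minus strand at chr5:51567726-51567975, held a TGACG match on the opposite strand, 49 to 45 bases before its start. Among all 32851 promoters of the same length, 0.788% held TTACGTNA, 17.8% held TGACG and 5.56% held TGTTTTG. G6pc also held TATAAA, as did 12.4% of promoters. No promoter of the 9 genes, of which Pcx has 2 in the table, held GTAAACA (a forkhead core, in 3.17% of promoters) or a full palindromic glucocorticoid response element (in 0.00913%). Sequence outside these windows was not searched, and binding was not measured.

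Across the 6 livers the 9 genes spanned a wide range of levels. Pck1 had the highest mean, 779 FPKM, followed by Fbp1 at 632, Tat at 544, G6pc at 126, Pcx at 93.8, Igfbp1 at 29.8, Foxo1 at 3.35, Ppargc1a at 0.972 and Irs2 at 0.815 FPKM. The ranges of neighbors in this order overlapped between Pck1, Fbp1, Tat (240.5 to 1004 FPKM), G6pc (24.7 to 329 FPKM) and Pcx, and between Ppargc1a and Irs2. Pcx, at 82.1 to 104 FPKM, lay above Igfbp1, at 19.5 to 53.2 FPKM, in every liver. Foxo1, at 2.61 to 4.83 FPKM, overlapped neither of its neighbors.

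Compared with the controls, 8 of the 9 genes had a higher mean log2 level after lipophagy induction, where 54.5% of all tested genes did. Irs2 was the exception. The median difference of the 9 genes was 0.38 on the log2(FPKM + 1) scale, beside 0.020 over all tested genes. None of the 9 passed the test (limma, adjusted p below 0.05 over all tested genes), a threshold that 0.0261% of tested genes passed, all of them lower in the lipophagy livers. At an unadjusted p below 0.05, 3 members were higher (Pck1, Fbp1 and Tat) and none was lower, against 11.5% of all tested genes higher and 7.97% lower. In 4 members, Pck1, Fbp1, Pcx and Ppargc1a, every lipophagy liver was above every control liver, as was the case for 15.4% of tested genes. An exact permutation test of 3 livers against 3 cannot give a p below 0.1.

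The scale of the values mattered for these counts. The FPKM of a liver summed to 622696, 657300 and 681138 in the controls and to 782392, 734436 and 709993 in the lipophagy livers, so the lipophagy sums were all larger. Each liver was then scaled to the same sum (TPM, each transcript's share of the total). The median difference of all tested genes moved by -0.14 to -0.12. No member had an unadjusted p below 0.05 with TPM, whereas 236 genes higher and 2509 lower of 11509 tested did. With TPM 22.5% of all tested genes had a higher mean in the lipophagy group, against 54.5% before and 52.0% with quantile normalization. The share of the same scaling is the one to set beside the counts of the lists below. The median of the 9 genes was 0.20 with TPM, 0.28 with quantile normalization and 0.23 without control 3. With quantile normalization 1 member, Ppargc1a, had an unadjusted p below 0.05 and was higher, beside 745 genes higher and 899 lower of 11493. Of all genes with an unadjusted p below 0.05, 59.2% were higher in the lipophagy livers with FPKM as deposited, 45.3% with quantile normalization and 8.60% with TPM.

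Marker genes of the cell types in the tissue were set beside these values, since in bulk liver fewer cells of a type and less RNA per cell cannot be told apart. The 10 hepatocyte markers, Alb among them, were all detected and summed to 71780 to 81921 FPKM in the controls and to 85378 to 109090 FPKM in the lipophagy livers, and 7 of the 10 had a higher lipophagy mean with FPKM as deposited but 4 of 10 with TPM or quantile normalization. Alb, the main plasma protein, differed by 0.47 and Trf, the iron carrier transferrin, by -0.12 on the log2 scale. All 5 tested bile duct markers had a lower mean, from -0.71 for Spp1, which encodes osteopontin, to -0.060 for Sox9, and their list summed to 137, 239 and 247 FPKM in the controls and to 92.0, 196 and 102 FPKM in the lipophagy livers. Stellate cell and fibroblast markers were lower in 7 of 8 (Col1a1 -0.75, Lrat 0.25), at sums of 157 to 173 against 127 to 157 FPKM. Macrophage markers were lower in 4 of 8, or 7 of 8 with TPM (Cd68 -0.38, Vsig4 0.40), at 490.0 to 639 against 479 to 604 FPKM, and endothelial markers in 1 of 7 (Clec4g 0.43, Pecam1 -0.11), at 32.3 to 40.5 against 36.5 to 57.8 FPKM, but in 4 of 7 with TPM. The 3 tested lymphocyte markers were lower (Ptprc -0.28, Cd79a -0.12), at 6.26 to 7.08 against 4.94 to 5.41 FPKM. No marker in these lists was at 0 in all livers or passed the adjusted threshold, and the part of cell composition in the results below was not tested.

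**Figure D1:**
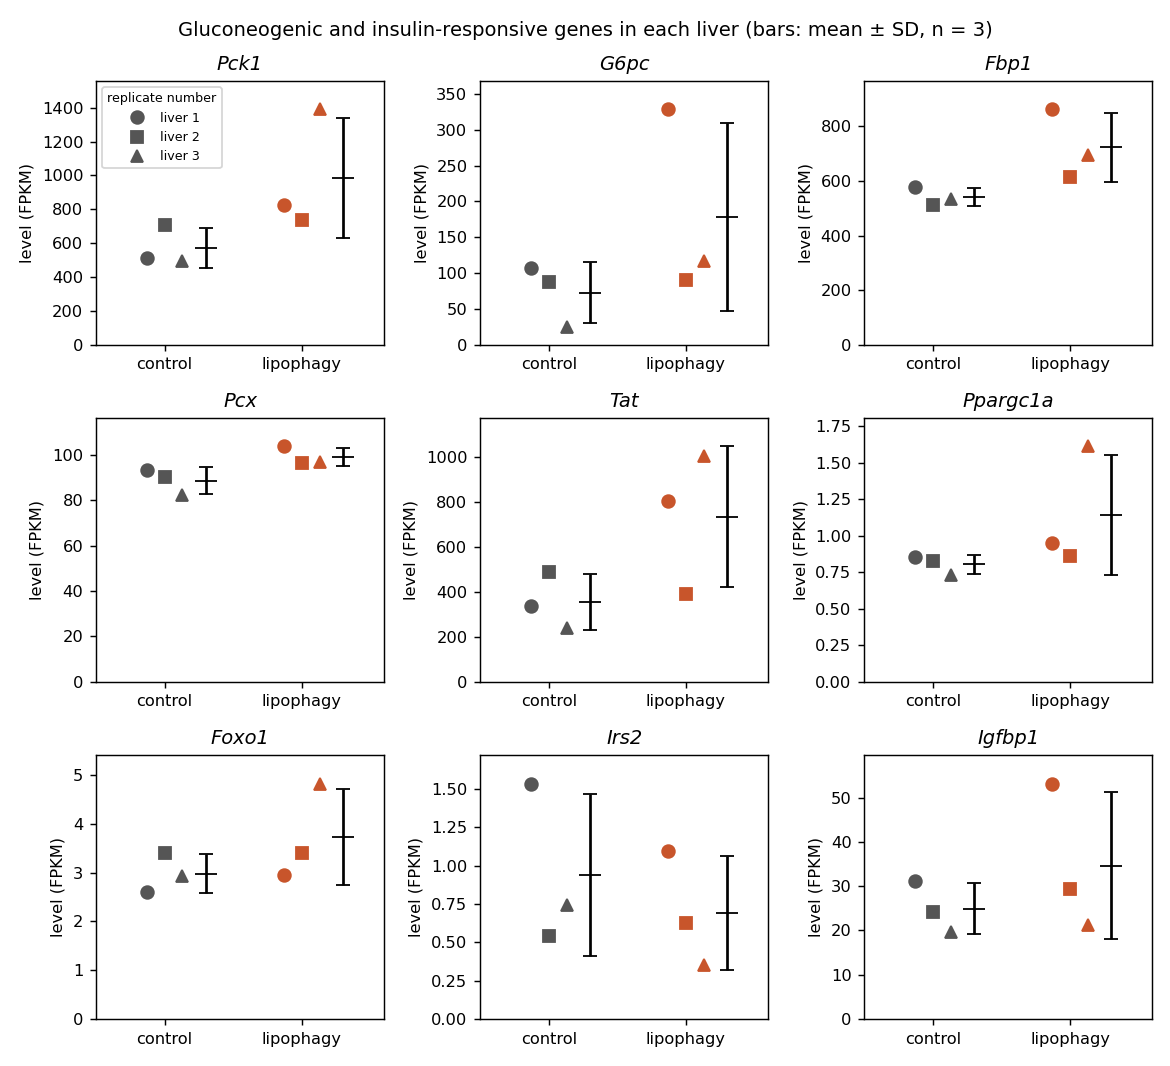
Level of each gene in FPKM (linear axes from 0) in the 3 control and 3 lipophagy livers, with marker shape giving the replicate number and black bars giving the mean ± SD (n = 3). For Pck1, Fbp1, Pcx and Ppargc1a the lipophagy livers sat above all controls, whereas for G6pc the groups overlapped and lipophagy liver 1 reached 329 FPKM.

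Pck1 encodes the cytosolic enzyme that turns oxaloacetate into phosphoenolpyruvate. It stood at 512, 709 and 497 FPKM in control livers 1 to 3 and at 828, 736 and 1391 FPKM in lipophagy livers 1 to 3. All lipophagy livers were above all controls, although control 2 and lipophagy 2 were close. The mean was 573 ± 118 FPKM (SD, n = 3) in the controls and 985 ± 355 FPKM (SD, n = 3) in the lipophagy livers, a ratio of 1.72. The log2 difference was 0.74 (SE 0.24, 95% interval 0.18 to 1.30, limma adjusted p = 0.186), and it was 0.47 without lipophagy liver 3.

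Glucose-6-phosphatase, the product of G6pc, releases free glucose at the last step of the pathway. It had the largest difference of the 9 genes and the widest spread within groups. The level was 107, 86.9 and 24.7 FPKM in the controls and 329, 89.9 and 117 FPKM in the lipophagy livers. The groups overlapped, since lipophagy 2 stood between control 1 and control 2, and control 3 and lipophagy 1 lay far from their groups' other livers. The means were 72.8 ± 42.8 and 178 ± 131 FPKM (SD, n = 3 each), and the log2 difference of 1.29 (SE 0.61, 95% interval -0.12 to 2.69) did not pass the test (limma adjusted p = 0.288). It was 0.65 without control 3 and 0.73 without lipophagy 1. The pooled SD of its log2 level, 1.05, stood beside a median of 0.12 over all tested genes.

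G6pc and Pck1 are often read together, yet their ratio was not fixed from liver to liver. It was 0.208, 0.123 and 0.0496 in the controls and 0.397, 0.122 and 0.0839 in the lipophagy livers. The ranges overlapped (two-sided exact permutation p = 0.7). Lipophagy 1 was thus highest for G6pc and lipophagy 3 for Pck1.

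Fbp1 encodes fructose-1,6-bisphosphatase, the enzyme that opposes phosphofructokinase. Its level was 578, 512 and 533 FPKM in the controls and 863, 614 and 695 FPKM in the lipophagy livers. The groups did not overlap and the controls lay close together (541 ± 33.9 against 724 ± 127 FPKM, SD, n = 3 each). The log2 difference was 0.41 (SE 0.13, 95% interval 0.10 to 0.71, limma adjusted p = 0.184), and it was 0.22 with TPM and 0.18 with quantile normalization.

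Pcx, which encodes the mitochondrial pyruvate carboxylase that feeds the pathway with oxaloacetate, had the narrowest spread within groups of the 9 genes on the log2 scale (pooled SD 0.079). Control livers held 93.5, 90.2 and 82.1 FPKM and lipophagy livers 104, 96.5 and 97.0 FPKM. All lipophagy livers were above the controls, by a small margin (88.6 ± 5.83 against 99.1 ± 4.01 FPKM, SD, n = 3 each). The log2 difference of 0.16 (SE 0.083, limma adjusted p = 0.313) became -0.020 with TPM and 0.013 with quantile normalization, so its direction depended on the scale.

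Tat encodes tyrosine aminotransferase, the first enzyme of tyrosine breakdown and a classic glucocorticoid-induced gene of hepatocytes. It stood at 337, 488 and 240.5 FPKM in the controls and at 803, 390 and 1004 FPKM in the lipophagy livers. Lipophagy 1 and 3 were above every control, whereas lipophagy 2 lay between control 1 and control 2. The means were 355 ± 125 and 732 ± 313 FPKM (SD, n = 3 each), a ratio of 2.06, and the log2 difference was 0.995 (SE 0.36, 95% interval 0.16 to 1.83, limma adjusted p = 0.211).

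Both transcriptional regulators were expressed at low levels. Ppargc1a encodes PGC-1α, a coactivator that fasting induces and that drives gluconeogenic genes together with FOXO1 and HNF4α. It was at 0.854, 0.825 and 0.732 FPKM in the controls and at 0.949, 0.861 and 1.61 FPKM in the lipophagy livers. The groups did not overlap, but lipophagy 2 exceeded control 1 by very little. The log2 difference of 0.23 (SE 0.13, limma adjusted p = 0.353) was 0.079 when lipophagy 3 was left out, 0.14 with TPM and 0.41 with a pseudocount of 0.1, and the ratio of mean FPKM was 1.42.

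Foxo1 encodes the forkhead factor through which insulin represses this program. Its level was 2.61, 3.40 and 2.93 FPKM in the controls and 2.96, 3.41 and 4.83 FPKM in the lipophagy livers. Lipophagy 1 lay within the control range and lipophagy 2 at its upper edge. The log2 difference of 0.24 (SE 0.15, limma adjusted p = 0.399) was 0.076 without lipophagy 3 and 0.099 with TPM. FOXO1 is regulated mainly by phosphorylation, which RNA levels do not show.

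Irs2 encodes insulin receptor substrate 2, the adapter that couples the insulin receptor to PI3-kinase and whose gene insulin itself represses. It was the only member with a lower mean, at 1.54, 0.541 and 0.740 FPKM in the controls and 1.09, 0.628 and 0.353 FPKM in the lipophagy livers. The groups overlapped widely, and control 1 held the highest value. The log2 difference of -0.19 (SE 0.21, 95% interval -0.67 to 0.30, limma adjusted p = 0.643) was 0.023 without control 1, so no direction could be read. It was -0.39 with a pseudocount of 0.1, and the ratio of mean FPKM was 0.736. Steps in the lowest FPKM values, read as single fragments, put the depth of the livers at 0.856 to 1.27 times that of control 1 and the Irs2 values at a rough 54.0 to 254 fragments.

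Igfbp1 encodes a liver-secreted protein that binds insulin-like growth factors, and insulin lowers its transcript quickly. It was at 31.1, 24.2 and 19.5 FPKM in the controls and at 53.2, 29.4 and 21.2 FPKM in the lipophagy livers. Lipophagy 1 was above all controls and the other 2 lipophagy livers fell within the control range. The log2 difference was 0.38 (SE 0.30, 95% interval -0.32 to 1.08, limma adjusted p = 0.50), and it was 0.027 without lipophagy 1, 0.67 without lipophagy 3, 0.22 without control 3 and 0.20 with TPM.

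**Figure D2:**
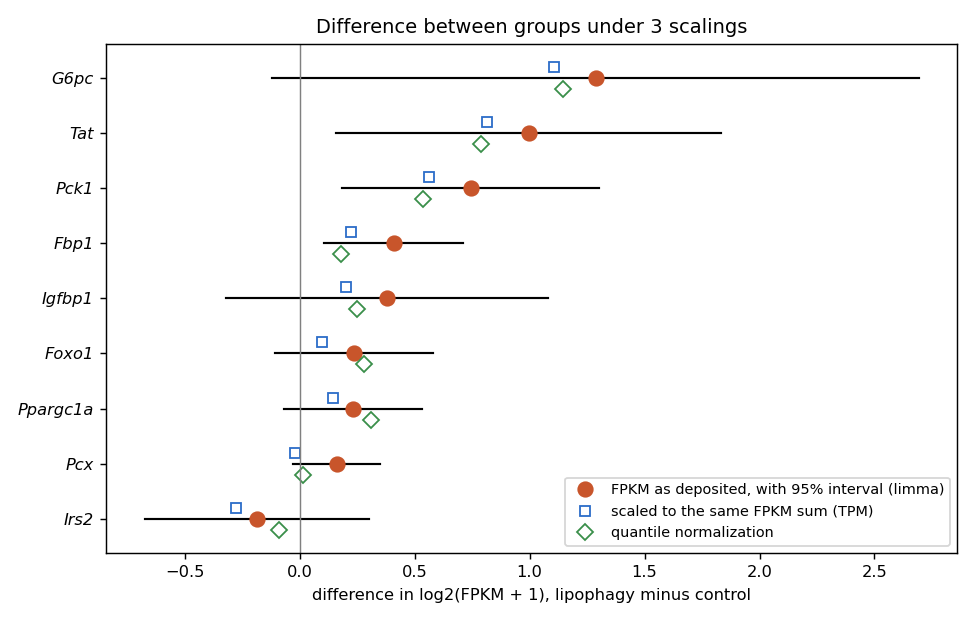
Difference in log2(FPKM + 1), lipophagy minus control, for each gene, with the 95% interval of the limma fit (n = 3 a group) for FPKM as deposited and open symbols for TPM and quantile normalization. The intervals of Pck1, Tat and Fbp1 lay above 0 before adjustment, and Pcx crossed 0 with TPM.

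The livers of 1 group did not keep the same order from gene to gene. Among the lipophagy livers, liver 1 was the highest for 5 members (G6pc, Fbp1, Pcx, Irs2 and Igfbp1) and liver 3 for 4 (Pck1, Tat, Ppargc1a and Foxo1). Lipophagy 2 was the lowest of its group for 6 members, and control 3 the lowest control for 6. The mean log2 level of the 9 genes, relative to the mean of all 6 livers, was -0.074, -0.11 and -0.53 in the controls and 0.48, -0.052 and 0.28 in the lipophagy livers. Lipophagy 2 thus lay above every control by this mean, but close to control 1.

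**Figure D3:**
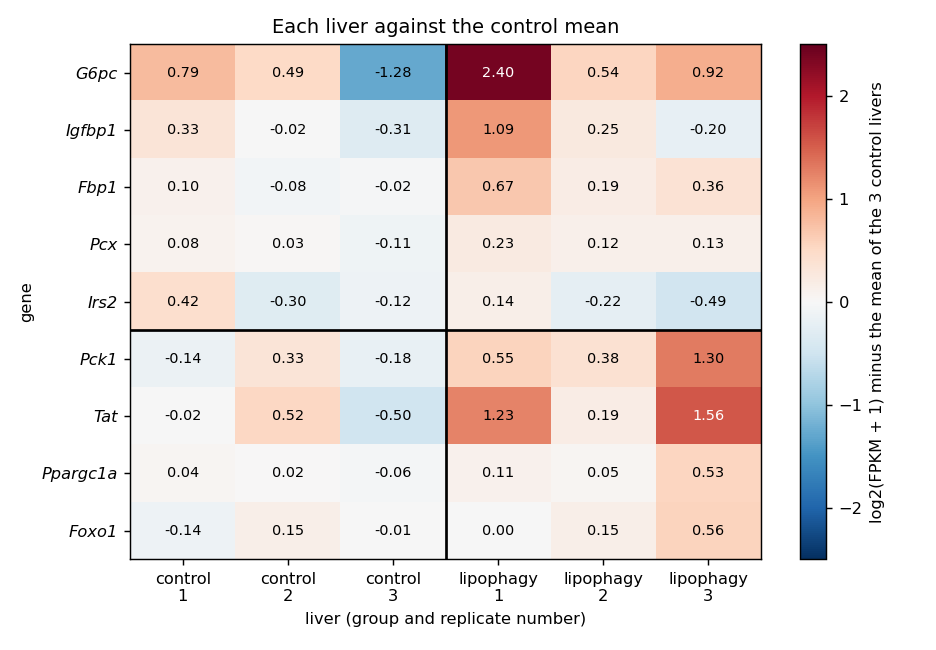
log2(FPKM + 1) of each gene in each liver minus the mean of the 3 control livers (red, higher; blue, lower), with genes above the horizontal line highest in lipophagy liver 1 among the lipophagy livers and those below it highest in liver 3. G6pc reached 2.40 in lipophagy 1 and -1.28 in control 3, and Tat 1.56 in lipophagy 3.

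Lipophagy 3, in which Pck1, Tat, Ppargc1a and Foxo1 peaked, also stood apart in glucocorticoid and clock genes. The mean log2 deviation of 20 genes of the glucocorticoid receptor and its targets was 0.55 in lipophagy 3 and between -0.19 and -0.011 in the other livers. That of 17 circadian clock genes was 0.47 in lipophagy 3 and between -0.15 and -0.0045 in the others. Tsc22d3, a glucocorticoid-induced leucine zipper protein, was at 15.9, 21.4 and 18.1 FPKM in the controls and 35.9, 34.5 and 68.6 FPKM in the lipophagy livers, so all of these were higher (log2 difference 1.22, limma adjusted p = 0.124). Ciart, a clock repressor, was at 35.5 FPKM in lipophagy 3 and at 2.46 to 4.76 FPKM in every other liver. Per1, which glucocorticoids and the clock both regulate, was at 8.71 FPKM in lipophagy 3 and at 1.76 to 3.28 FPKM elsewhere. The part of glucocorticoid level or time of day in the 4 members was not tested.

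None of the genes in these lists passed the adjusted test. In the glucocorticoid list 12 of 20 had a higher mean with FPKM as deposited and 9 of 20 with TPM. The median was 0.15, but -0.020 with TPM and 0.040 without lipophagy 3, and at an unadjusted p below 0.05, 6 were higher and 2 lower. Angptl4, a lipoprotein lipase inhibitor, differed by 0.88, Lcn2, an acute phase protein, by -0.79 and Cdkn1a, a cell cycle inhibitor, by -0.68. In the clock list 11 of 17 were higher, or 7 with TPM. The median was 0.11, but -0.036 with TPM, 0.030 without lipophagy 3 and 0.25 without lipophagy 1, and 2 had an unadjusted p below 0.05, both higher. Arntl, the core activator of the clock, differed by -0.26 and Bhlhe41 by -0.097.

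Beyond the 9 genes, 23 other gluconeogenic enzymes and transporters were tested, and their median difference was 0.23. Of these, 20 had a higher lipophagy mean with FPKM as deposited, but 15 with TPM and 16 with quantile normalization, with medians of 0.047 and 0.042. None passed the adjusted threshold, and at an unadjusted p below 0.05, 11 were higher and 1 lower. Slc37a4 encodes the transporter that brings glucose-6-phosphate to glucose-6-phosphatase. It was at 53.8, 53.6 and 58.4 FPKM in the controls and at 113, 76.3 and 121 FPKM in the lipophagy livers, with no overlap (log2 difference 0.86, SE 0.16, limma adjusted p = 0.116). The mitochondrial isoform gene Pck2 was lower in every lipophagy liver than in every control (log2 difference -0.24, limma adjusted p = 0.240), and G6pc3, the widely expressed phosphatase, differed by -0.18. Fbp2 was below the filter, and Gk was not matched to the table.

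Genes that dispose of glucose also had mostly higher means, next to those that make it. Of 27 genes of hepatic glucose uptake, glycolysis and glycogen, 20 were higher with FPKM as deposited, 17 with TPM and 21 with quantile normalization. The median was 0.32 with FPKM as deposited, 0.14 with TPM and 0.17 with quantile normalization. With FPKM as deposited 14 were higher and 2 lower at an unadjusted p below 0.05, and none passed after adjustment. Ppp1r3b, which targets protein phosphatase 1 to glycogen, was at 6.75, 13.9 and 8.97 FPKM in the controls and at 20.1, 15.3 and 42.7 FPKM in the lipophagy livers (log2 difference 1.23, limma adjusted p = 0.165). Its relative Ppp1r3g differed by 1.05. Pkm and Hk1, isoforms typical of cells other than hepatocytes, differed by -0.28 and -0.24, each without overlap.

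The lipogenic genes that insulin induces had higher means as well, although gluconeogenic genes are the ones insulin represses. All 12 tested were higher with FPKM as deposited and 11 with TPM or quantile normalization, with a median of 0.54, or 0.36 with TPM. At an unadjusted p below 0.05, 8 were higher, and none passed after adjustment. Thrsp, a lipogenic nuclear protein, was at 124, 172 and 85.1 FPKM in the controls and at 802, 284 and 818 FPKM in the lipophagy livers (log2 difference 2.22, SE 0.42, limma adjusted p = 0.116). Pklr, the liver pyruvate kinase that works against gluconeogenesis, was at 52.2, 43.9 and 35.3 against 119, 67.0 and 92.6 FPKM (log2 difference 1.04). Neither gene overlapped between groups. Mlxipl, which encodes the glucose-sensing factor ChREBP, and Me1, malic enzyme, had the smallest differences, 0.028 and 0.22. The list had its lowest mean deviation, -0.56, in control 3 and its highest, 0.72, in lipophagy 1, which are also the lowest and highest livers for G6pc.

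Amino acid breakdown, which supplies carbon for glucose and includes the pathway that Tat opens, had higher means in 30 of 30 tested genes with FPKM as deposited, but in 21 with TPM and 26 with quantile normalization. The median was 0.24 with FPKM as deposited, 0.057 with TPM and 0.077 with quantile normalization, and without lipophagy 1 it was 0.15, with 27 of 30 higher. At an unadjusted p below 0.05, 12 were higher, and none passed after adjustment. Sds, serine dehydratase, was at 110, 69.8 and 80.0 FPKM in the controls and at 167, 84.7 and 224 FPKM in the lipophagy livers, with overlap (log2 difference 0.78). Hpd, the enzyme after Tat in tyrosine breakdown, differed by 0.45 without overlap. The smallest differences were 0.090 for Cbs, cystathionine beta-synthase, and 0.12 for Amt of the glycine cleavage system.

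**Figure D4:**
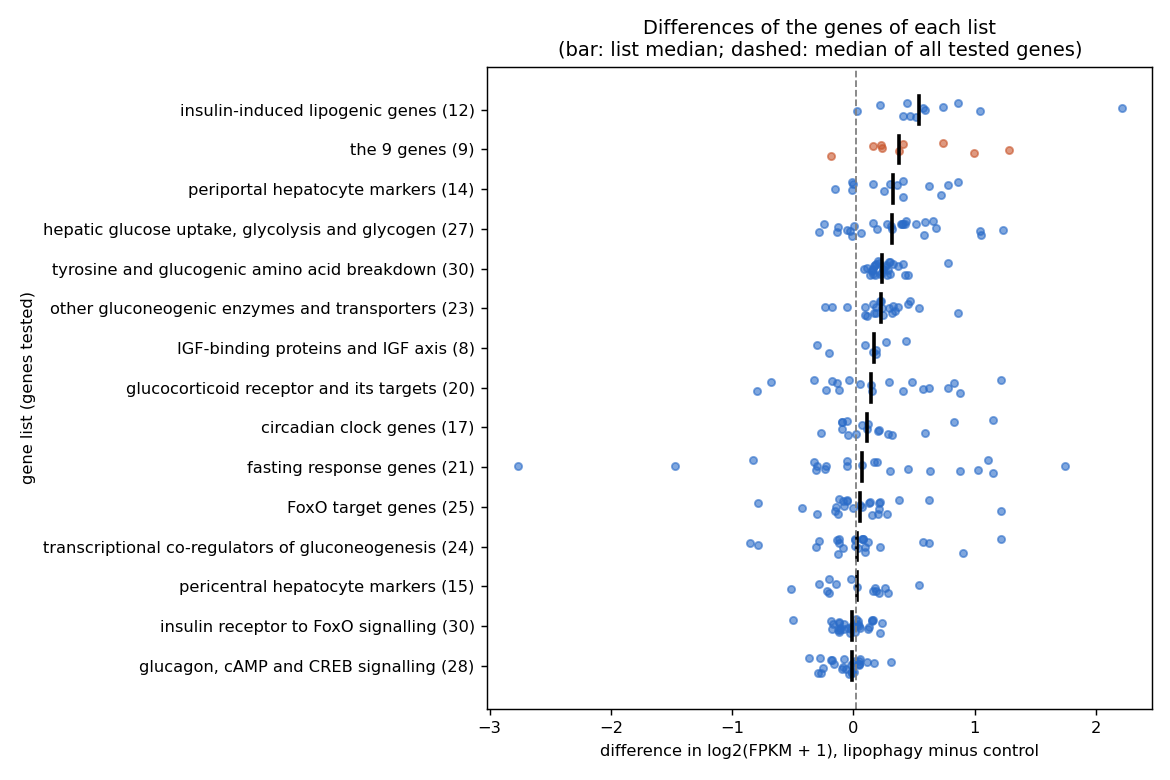
Difference in log2(FPKM + 1), lipophagy minus control, of each tested gene (points, with random vertical scatter) in the 9 genes and in 14 related lists, with black bars at list medians and a dashed line at the median of all tested genes, 0.020. Medians ran from -0.015 for glucagon, cAMP and CREB signaling to 0.54 for the insulin-induced lipogenic genes.

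Signaling genes upstream were tested as well. Of 30 genes from the insulin receptor to FoxO, 14 were higher and 16 lower (median -0.014, or -0.16 with TPM, with 3 of 30 higher), and 1 had an unadjusted p below 0.05, Shc1, an adapter of the receptor, at 0.24. Trib3, an AKT inhibitor, differed by 0.22, Trib1 by -0.50 and Grb10, an inhibitor of the receptor, by -0.18. Of 28 genes of glucagon, cAMP and CREB signaling, 10 were higher and 18 lower (median -0.015, or -0.15 with TPM, with 2 of 28 higher), and 3 had an unadjusted p below 0.05, all lower. Pde4d, a phosphodiesterase that breaks down cAMP, was at 0.979, 0.724 and 0.885 FPKM in the controls and at 0.530, 0.275 and 0.532 FPKM in the lipophagy livers (log2 difference -0.37, limma adjusted p = 0.154). These levels lie near the filter of 0.5 FPKM. Creb3l3, a liver CREB relative, differed by 0.31, Pde3b by 0.17 and Adcy6, an adenylyl cyclase, by -0.29. None of the genes in these signaling lists passed the adjusted threshold. Leaving out each liver in turn put the medians between -0.038 and 0.011 for the insulin list and between -0.076 and 0.021 for the glucagon list, so neither had a settled direction.

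Transcription factors and co-regulators of gluconeogenesis went both ways. Of 24 tested, 15 were higher and 9 lower with FPKM as deposited, and 6 were higher with TPM. The median was 0.029 with FPKM as deposited, -0.11 with TPM and between -0.0072 (without control 2) and 0.068 (without lipophagy 1) when livers were left out, with 2 higher and 3 lower at an unadjusted p below 0.05 and none after adjustment. Bcl6, a repressor of lipid oxidation genes, was at 2.05, 7.13 and 5.24 FPKM in the controls and at 6.42, 16.6 and 13.9 FPKM in the lipophagy livers, with overlap (log2 difference 1.22, limma adjusted p = 0.192). Klf10, a clock-linked factor, differed by 0.90. Foxa2, a forkhead factor of hepatocytes, was at 11.7, 14.9 and 17.5 against 7.07, 9.05 and 8.05 FPKM, without overlap (log2 difference -0.78, limma adjusted p = 0.116). Onecut1, another hepatocyte factor, differed by -0.86, with control 1 far above the other controls at 4.24 FPKM.

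Among 25 FoxO target genes other than the members, 13 were higher and 12 lower, and 8 were higher with TPM. The median was 0.055 with FPKM as deposited, -0.086 with TPM, 0.020 without lipophagy 2, 0.031 without control 3 and 0.034 without lipophagy 3. At an unadjusted p below 0.05, 6 were higher and 2 lower, and none passed after adjustment. Klf15, a factor that supports amino acid use during fasting, differed by 0.62 without overlap. Gadd45a, a stress response gene, differed by -0.78 and Hmox1, heme oxygenase, by -0.42.

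The growth factor axis around Igfbp1 was tested in 8 genes. With FPKM as deposited 6 were higher and 2 lower, with TPM 5 and with quantile normalization 4 were higher. The median was 0.17 with FPKM as deposited, 0.0035 with TPM and 0.0038 with quantile normalization, and at an unadjusted p below 0.05, 2 were higher and 2 lower, with none after adjustment. Ghr, the growth hormone receptor, was at 162, 153 and 137 FPKM in the controls and at 198, 195 and 215 FPKM in the lipophagy livers, without overlap (log2 difference 0.43, limma adjusted p = 0.131). Igfbp2, the most abundant binding protein of the list, differed by 0.27, Igfbp7 by -0.30 and Igf2r by -0.20.

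The genes whose pattern over the 6 livers was most like that of G6pc, by Euclidean distance between scaled log2 profiles, were Fahd2a (0.340), Psme3 (0.367) and Apmap (0.371). Their differences between groups were far smaller than that of G6pc, at 0.20, 0.11 and 0.18 on the log2 scale. For Irs2, AI987944 (0.386) and Pacrgl (0.391) were among the nearest, with differences of -0.032 and -0.080. These distances rest on 6 livers and describe only the order and spacing of their values.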

How the data were processed

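Liver RNA of 3 control and 3 lipophagy mice was measured by stranded poly(A) RNA sequencing. The authors deposited FPKM for each gene symbol and liver, and their processing notes name TopHat2 2.0.13, Bowtie2 2.2.3, SAMtools 0.1.19, Cufflinks 2.2.1 and the build mm10. The annotation is not given in the sources used here. Since FPKM had been scaled before deposit, models for raw reads were left aside. Of the names, 27 had been turned into dates. Groups came from the sample labels.

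From the FPKM, log2(FPKM + 1) was computed, and the 11493 genes averaging 0.5 FPKM or more went into limma 3.58.1 under R 4.3.3 (moderated variance, intensity trend, no covariates, two-sided, Benjamini-Hochberg adjustment, threshold 0.05). Differences on this scale understate those of low genes. An exact two-sided permutation test served for single values. The members and gene lists were chosen with earlier results of these data known, and the motifs after the sequences were seen. Named were all members, in each list any gene with an adjusted p below 0.05 and the 2 most positive and 2 most negative differences (1 and 1 for cell markers), and the 3 genes with profiles most like G6pc and Irs2. Some results under this rule are not reported here. In lists with no negative difference the smallest ones are given. Alternatives covered pseudocount, filter, scaling, the model's trend, a replicate block and leaving out each liver. Same-numbered livers deviated together by r = 0.250, 0.234 and -0.057, and differently numbered ones by r from -0.387 to 0.251. These ranges overlapped, and the numbers were not taken as pairs. Promoters came from RefSeq (GRCm38.p6), and all 9 genes matched. Python 3.11.15 was used.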

Additional observations from a re-analysis of the deposited data

How the results depend on the processing

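Recomputed differences of the 9 genes kept their direction and side of the threshold in 131 cases and turned in 2. Changing the filter, dropping the trend or adding a replicate block cannot alter a gene's difference, so there only the threshold could be crossed. Pcx turned to -0.020 with TPM. Irs2 ran from -0.35 to 0.023 when livers were left out, turning without control 1. Irs2 and Ppargc1a could not be fitted at a mean of at least 1 FPKM. The adjusted count of members was 0 in each of the 15 refits and 3 on the unadjusted p. Recomputations of the unadjusted count, chosen after seeing the data, gave 0 members with TPM and 1 with quantile normalization. When livers were left out they gave 1 (without control 3) to 5 (without lipophagy 2). Over all tested genes, 236 were higher and 2509 lower of 11509 with TPM, and 745 and 899 of 11493 with quantile normalization. Without control 3, 905 were higher and 596 lower of 11462, and without lipophagy 2, 1084 and 844 of 11515. With the replicate number as a block, 5 members had an unadjusted p below 0.05 (G6pc and Igfbp1 were added), as had 1133 genes higher and 911 lower of 11493, and 43 genes of all tested passed the adjusted threshold, 17 of them higher. Over all tested genes 3 passed, but 1 with no filter, 104 with TPM (5 higher, 99 lower) and 2 to 11 when livers were left out (7 without control 2, 5 without lipophagy 2, 11 without lipophagy 3).

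List medians moved beyond the spread between livers in 33 recomputations and stayed within it in 282. With no filter, without the trend and with the replicate block the medians could not move. With TPM they were 0.047 (other gluconeogenic), 0.14 (glucose use), -0.16 (insulin receptor to FoxO), -0.15 (glucagon and cAMP), -0.11 (co-regulators), -0.086 (FoxO targets), 0.057 (amino acids), 0.0035 (IGF axis), -0.15 (pericentral), -0.017 (hepatocyte), -0.19 (macrophage), -0.37 (stellate) and -0.37 (lymphocyte). With quantile normalization they were 0.042 (other gluconeogenic), 0.17 (glucose use), 0.077 (amino acids), 0.0038 (IGF axis), -0.12 (pericentral), -0.041 (hepatocyte) and -0.18 (lymphocyte). Stellate markers were at -0.29 with a pseudocount of 0.1 and -0.14 at a mean of at least 1 FPKM, and lymphocyte markers at -0.38 and -0.33 with pseudocounts of 0.1 and 0.5. Leaving out livers gave 0.078 to 0.20 (IGF axis), -0.13 to 0.13 (pericentral), 0.020 to 0.21 (fasting), -0.050 to 0.056 (macrophage), -0.28 to -0.19 (stellate) and -0.30 to -0.20 (lymphocyte). The cause of these shifts was not tested. Ppargc1a and Irs2 lie near the lowest levels tested, where FPKM are least precise.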

Other observations

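Gluconeogenesis is a periportal function, and markers of the zones of the lobule were compared. Of 14 periportal hepatocyte markers, 10 had a higher lipophagy mean (9 with TPM or quantile normalization), with a median log2 difference of 0.33, or 0.15 with TPM, 0.16 with quantile normalization and 0.18 without lipophagy 1. Etnppl, an enzyme of phosphoethanolamine breakdown, was at 40.8, 33.4 and 29.2 FPKM in the controls and 87.8, 41.4 and 68.6 FPKM in the lipophagy livers, without overlap (0.86, limma adjusted p = 0.162). Ctsc differed by -0.15 and Apof by -0.011. Of 15 pericentral markers, 8 were higher (6 with TPM, 7 with quantile normalization), with a median of 0.028, or -0.15 with TPM and -0.12 with quantile normalization. Slc1a2, a glutamate transporter, differed by 0.54, Cyp2e1 by 0.28, Slc1a4 by -0.51 and Cyp7a1, the rate-limiting enzyme of bile acid synthesis, by -0.28. None of these markers passed the adjusted threshold, and at an unadjusted p below 0.05, 7 periportal markers were higher and none lower, and 2 pericentral markers were higher and 1 lower.

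Among 21 fasting response genes 11 were higher and 10 lower, and 10 were higher with TPM. The median was 0.075 with FPKM as deposited, -0.053 with TPM and 0.21 without lipophagy 1. Cish, a cytokine-induced inhibitor of STAT5 signaling, fell by 2.77 on the log2 scale (limma adjusted p = 0.00172), from 15.8, 10.2 and 13.1 FPKM in the controls to 0.796, 0.934 and 1.40 FPKM in the lipophagy livers. Lpin1, a phosphatidate phosphatase and coactivator, was at 5.43, 9.21 and 5.42 against 17.8, 15.8 and 49.2 FPKM (1.75, adjusted p = 0.134). Cyp4a10, a fatty acid hydroxylase, differed by 1.15. Cidec, a lipid droplet protein, was at 5.76, 6.61 and 6.29 against 0.818, 1.61 and 2.72 FPKM (-1.47, adjusted p = 0.0897).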
